A study of Mus musculus with 6 samples.

Results

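Elongated mouse neural tube organoids at day 10 of culture were compared with elongated organoids at day 8, over all cells and within each deposited cell class. The cells were taken by the authors' day column: 3677 cells at day 10 and 3337 cells at day 8, together 7014 of the 16282 cells of the series. Both groups were grown from the same mouse embryonic stem cell line, which carries Sox1::eGFP and Bra::mCherry reporters of early neural and mesodermal fate. Per the labels, single stem cells were embedded in Matrigel, received bFGF and activin-A in N2B27 medium up to day 3 and N2B27 alone afterwards, and were moved at day 6 into fresh Matrigel, 1 organoid per drop. No agent distinguished day 10 from day 8, so the groups differ by 2 days of further culture. Each group is 1 library made from 100 pooled organoids of 1 cell line, read with the 10x Genomics 3′ v3 kit. The spread between organoid pools of the same day is therefore unknown, no p-value can be given, and "higher" and "lower" below describe these 2 libraries. The day 10 library held 89832377 UMIs (counted RNA molecules) and the day 8 library 115735293, with medians of 22053 and 31471 UMIs per cell. Median mitochondrial shares were 5.81% and 5.35% at day 10 and day 8. Median detected genes per cell were 4733 at day 10 and 5487 at day 8 as deposited, and 2757 and 2719 after each cell was thinned to 8000 UMIs. The libraries shared 3 cell barcodes.

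In the dorsal neural tube, progenitors next to the roof plate divide under BMP and Wnt signals and give rise to ordered classes of interneurons. The dP1 progenitors express Atoh1 and produce dI1 neurons, while the dP2 and dP3 domains produce dI2 and dI3 neurons, which switch on Lhx and other homeodomain factors as they leave the cell cycle. Over the same period neural progenitors pass from an early to a late competence state: RNA regulators of the Lin28, Trim71 and let-7 circuit are known to decline or mature in order, and Nfia and Nfib, nuclear factors of late progenitors and of the switch to glia, come on.

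The authors deposited 11 class names, of which 8 had at least 50 cells on both days. In the dI1 class 5 of 5 markers (Lhx2, Lhx9, Barhl1, Barhl2, Pou4f1) were at least 2-fold above the other cells on both days. In the spinal cord class 6 of 6 Hox markers were at day 8 and 5 of 6 at day 10, without Hoxb6 (log2 0.36). In the migratory crest class, led by Sox10, 7 of 7 markers were at day 8 and 5 of 7 at day 10. Tfap2a (log2 −0.28) and Tfap2b (−3.38) were below the other cells there at day 10. The other names are used as deposited and fit their markers in part. In the class deposited as dI2, Lhx1, Lhx5 and Pou4f1 (3 of 4 markers, without Foxd3) were at least 2-fold above the other cells on both days, but its leading genes were Slc32a1, Pax2 and Lhx1 at day 10 and Pax2, Lbx1 and Lhx1 at day 8; Pax2, Lbx1 and Slc32a1 are known from more ventral, inhibitory interneurons. In dI3 3 of 4 markers were above the other cells at day 10 and 2 of 4 at day 8, without Otp. In dP1 2 of 6 (Atoh1 and Olig3) were at day 10. At day 8 3 of 6 were, with Gdf7 added on 1 UMI. Msx1 (log2 0.08 at day 10 and 0.07 at day 8) and Msx2 (−0.62 and −0.36) were not, and Lmx1a had 0.387 and 0 CPM. The class was led by Atoh1 at day 10 and by the dI1 marker Barhl1, then Atoh1, at day 8. In dP2/3 2 of 5 were at day 10 and 3 of 5 at day 8; Olig3 was below the other cells on both days (log2 −0.19 and −0.83), as was Msx1 (−2.44 and −2.61), and none of the 5 was among its 10 leading genes at day 8. In the mid/hindbrain class 3 of 9 markers (Sox2, Pax6 and Hes5) were at least 2-fold above the other cells at day 10. At day 8 1 of 9 was, Egr2, at 2.25 CPM. The midbrain markers Otx2 (log2 −4.19 at day 10 and −1.998 at day 8) and En1 (−1.772 and −1.901) were below the other cells. En2 was also below them at day 8 (−3.079, on 2 UMIs) and near them at day 10 (−0.057). Hoxa2 was near the other cells on both days (−0.029 and 0.177). The classes deposited as Pre-EMT cranial and Pre-EMT vagal/trunk crest did not carry their names' markers: Foxd3, a defining factor of premigratory crest, had 0 UMIs in both on both days, and 1 of 7 crest markers was 2-fold above the other cells in each. They are called cluster 8 and cluster 14 here. Cluster 8 was led at day 8 by the roof plate genes Rspo1, Rspo3 and Wnt1, and at day 10 by Ttr, Otx2 and Cela1. Cluster 14 was led by Col14a1, Aldh1a2 and Rspo3. The class deposited as proliferative progenitors is called cluster 12: 5 of 5 cell cycle markers were 2-fold above the other cells at day 10, but 1 of 5 at day 8, when it was led by Dbx1, Neurod4 and Insm1. Lists of immune, erythroid and mesodermal genes had no member at the level needed for comparison. Their summed levels at day 10 and day 8 were 3.23 and 2.52 UMIs per 1000000 (CPM) for 6 immune genes, 0.468 and 0.579 CPM for 6 erythroid genes, and 6.77 and 5.14 CPM for 14 mesoderm and muscle genes.

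A pair of microRNA host transcripts belonged to the genes that were higher at day 10. Known let-7 targets were among the genes that were lower. The sequences are shown first, and a link between hosts and targets was not tested. Mir99ahg is the host of let-7c, miR-99a and miR-125b, and Mir9-3hg is a host of miR-9; the host transcripts were measured, the mature microRNAs were not. The mature sequences are those of RefSeq on GRCm38.p6, written 5′ to 3′ with the seed, bases 2 to 8, in capitals. All 3 on chromosome 16 lie inside Mir99ahg (chr16:77236317-77773427, plus strand), and miR-9 lies inside Mir9-3hg (chr7:79500026-79534403, plus strand).
mmu-let-7c-5p, chr16:77599672-77599693: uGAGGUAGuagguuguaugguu
mmu-miR-99a-5p, chr16:77598940-77598961: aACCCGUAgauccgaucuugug
mmu-miR-125b-5p, chr16:77646279-77646300: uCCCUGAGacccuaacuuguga
mmu-miR-9-5p, chr7:79505279-79505301: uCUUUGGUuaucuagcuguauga

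The letters CTACCTC, which pair with the let-7 seed, were searched on the gene's strand in the longest annotated 3′ untranslated region (UTR) of each gene in GENCODE M21 on GRCm38. Of the 8 genes at least 2-fold lower at day 10 in 7 or 8 of the classes compared, 6 held a match. The other 2, Fndc3c1 and Mt2, held none. Over all 9381 compared genes with a UTR, 10.8% held a match. Windows of 22 bases are shown for those 6, with the match in capitals; 2 of the 4 windows of Trim71 and 1 of the 8 of Nr6a1 are given as examples.
Lin28a, chr4:134005189-134005210, minus strand: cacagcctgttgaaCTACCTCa
Lin28a, chr4:134004551-134004572, minus strand: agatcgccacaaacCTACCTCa
Trim71, chr9:114512472-114512493, minus strand: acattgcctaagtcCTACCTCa
Trim71, chr9:114512376-114512397, minus strand: gtgataatttctatCTACCTCa
Nr6a1, chr2:38727449-38727470, minus strand: gttgacaaagacaaCTACCTCa
Prtg, chr9:72912559-72912580, plus strand: cctctgctgaatagCTACCTCa
Prtg, chr9:72913989-72914010, plus strand: cgctcctgtttataCTACCTCc
Sall4, chr2:168748940-168748961, minus strand: gggctttaatttatCTACCTCa
Hoxb1, chr11:96368206-96368227, plus strand: ctttgtatctgcaaCTACCTCa

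Lin28a held 2 such matches in a UTR of 2775 bases, and 2.33% of 1462 UTRs of between 80 and 125% of that length held as many. Trim71 held 4 matches in 5512 bases, a number reached by 0.739% of 541 UTRs of like length. Nr6a1 held 8 in 4457 bases, reached by 0.118% of 845 UTRs. Prtg held 2 in 4989 bases, reached by 5.63% of 675 UTRs, and Sall4 held 1 in 1697 bases, with at least 1 in 11.4% of 1591 UTRs of like length. Hoxb1 held 1 in 1117 bases, with at least 1 in 8.03% of 1420 UTRs. Matches of other families were held as well. Prtg held 3 for miR-9 and 3 for miR-125, reached by 1.33% and 1.78% of 675 UTRs. Greb1, among the 15 lowest over all cells, held 4 for miR-9, reached by 0.0628% of 1593 UTRs. The early-stage regulator Lin28b held 4 for miR-9, reached by 0.235% of 850 UTRs. Nr6a1, Sall4, Fndc3c1 and Mt2 held none for miR-9, and Hoxb1, Sall4, Fndc3c1 and Mt2 none for miR-125. Among the 15 lowest genes named over all cells, 6 held a let-7 match, and 8 held none (Fndc3c1, Ccnd1, Irx3, Fhl1, Egfl7, Ltbp1, Sox1 and Mt2); Lratd2 was not searched. Of the 11 early-stage RNA regulators Mycn and Dnmt3b held none. Over all 9381 compared genes with a UTR, 10.8% held the let-7 match, 14.5% the miR-9 match ACCAAAG, 15.6% the miR-125 match CTCAGGG and 1.55% the miR-99 match TACGGGT; matches of different families were counted separately and may overlap. The list of early-stage RNA regulators was drawn up partly from knowledge of let-7 targets. The genes lower across classes were picked by their values in these same data. These counts therefore describe the sequences and are not independent evidence of regulation.

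The libraries differed in their make-up of cell classes. The classes deposited as dorsal interneurons (dI1, dI2 and dI3) made up 32.0% of the day 10 cells (95% exact Clopper-Pearson interval 30.5 to 33.5%, 1176 cells) and 8.15% of the day 8 cells (7.24 to 9.13%, 272 cells). Dorsal progenitors (dP1 and dP2/3) made up 18.1% (16.8 to 19.3%) at day 10 and 9.95% (8.95 to 11.02%) at day 8. The mid/hindbrain, spinal cord and cluster 12 progenitors, which carry no dorsal name, together held 38.6% (37.1 to 40.2%) at day 10 and 77.3% (75.9 to 78.8%) at day 8. All intervals here cover counting error alone and not the spread between pools of organoids.

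Within these groups the shares were unequal. The class deposited as dI1 held 11.8% of cells (10.8 to 12.9%) at day 10 and 1.02% (0.707 to 1.42%) at day 8. The dP1 class held 7.34% and 1.08%. At day 8 the 34 dI1 cells were led by Evx1os (61.3 CPM, and 0.113 CPM in the other cells). En1 was also among their 10 leading genes (52.8 and 0.870 CPM). In the dI1 class 9 ventral progenitor and floor plate genes summed to 3.85 CPM at day 10 and 56.4 CPM at day 8. The dI2 class held 10.2% (9.21 to 11.2%) at day 10 and 2.94% (2.39 to 3.57%) at day 8, and the dI3 class 9.98% (9.03 to 10.995%) and 4.20% (3.54 to 4.93%). The ratio of shares was thus widest for the class deposited as dI1, by name the most dorsal of the 3 neuron classes. The dP2/3 class held 10.7% (9.73 to 11.8%) at day 10 and 8.87% (7.93 to 9.89%) at day 8; among cells with at least 20000 UMIs this order turned, with 3.94% at day 10 and 6.27% at day 8. Cluster 12 held 4.30% at day 10 and 4.76% at day 8, and its order also turned at that depth, with 5.79% and 4.84%. Cluster 8 held 6.94% (6.13 to 7.80%) at day 10 and 2.28% (1.80 to 2.84%) at day 8, cluster 14 held 2.86% and 2.07%, and the migratory cranial crest class 1.52% and 0.210% (56 and 7 cells). With 34, 36 and 7 cells at day 8, dI1, dP1 and migratory crest could be compared by share alone.

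**Figure D1:**
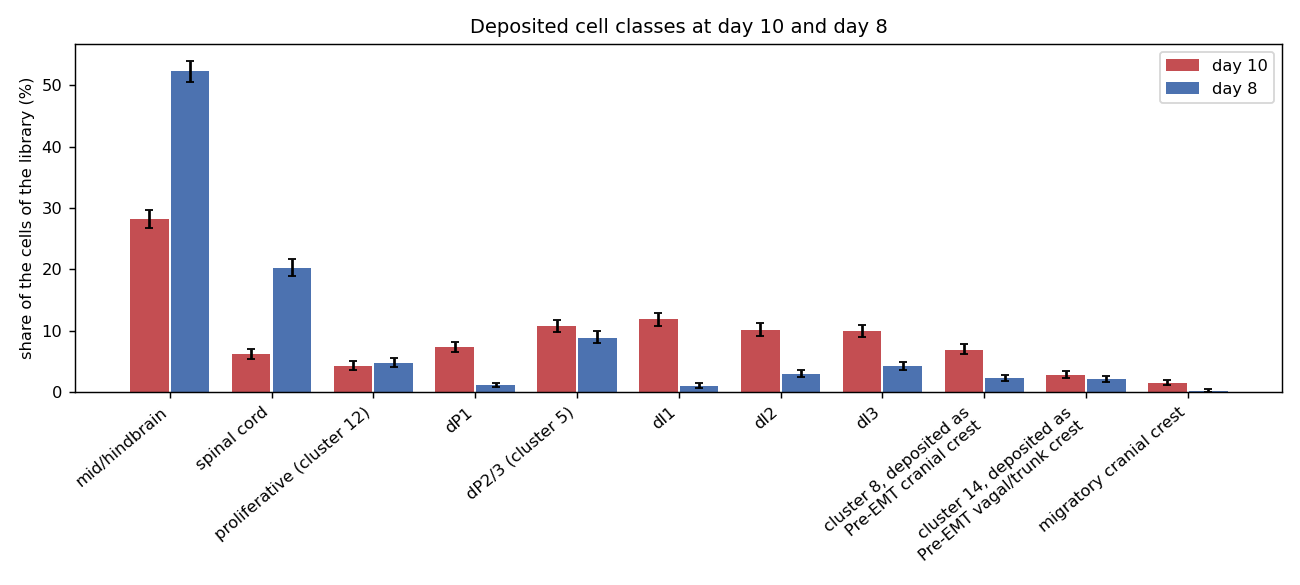
Share of cells (vertical axis, percent) in each of the 11 deposited classes (horizontal axis) at day 10 and day 8, with exact 95% intervals for counting error. The dI1, dI2, dI3 and dP1 classes sit at higher shares at day 10, and the mid/hindbrain class (28.1% and 52.3%) and the spinal cord class (6.20% and 20.3%) at lower shares.

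Over all cells, UMIs were summed per library and genes with a mean of at least 5 CPM and 20 UMIs in all were compared, 9711 genes. Of these, 659 (6.79%) were at least 2-fold higher at day 10 and 96 (0.989%) at least 2-fold lower, around a median log2 difference of 0.04. With TMM scaling, which moved the median of all genes by −0.14, 535 were higher and 164 lower, so that 76.5% of the 2-fold differences were upward against 87.3% with scaling to the total. For scale, the elongated day 6 duplicates, the one repeated group of the series, differed at least 2-fold in 173 genes upward (1.94%) and 138 downward (1.54%) of 8936, replicate 2 over replicate 1; they also differ in batch label and deposited table. In the step before, day 8 over day 7, which shares the day 8 library, 314 of 9381 genes were higher (3.35%) and 157 lower (1.67%).

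Because the cell mix differed so much, the day 10 sums of the 8 shared classes were also weighted to the class shares of day 8. Of 9540 genes compared in this way, 236 (2.47%) were at least 2-fold higher at day 10 and 72 (0.755%) at least 2-fold lower, around a median of 0.02. In the same 8 classes with the cells as deposited, 535 of 9674 genes were at least 2-fold higher (5.53%), of which 241 (45.1%) were still so at equal class shares, and the median log2 of the 535 was 1.48 as deposited and 0.92 at equal shares. Of 71 genes that were at least 2-fold lower (0.734%), 49 (69.0%) were still so, with medians of −1.27 and −1.20. A large part of the upward differences thus went with the class shares, and most of the downward ones did not.

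**Figure D2:**
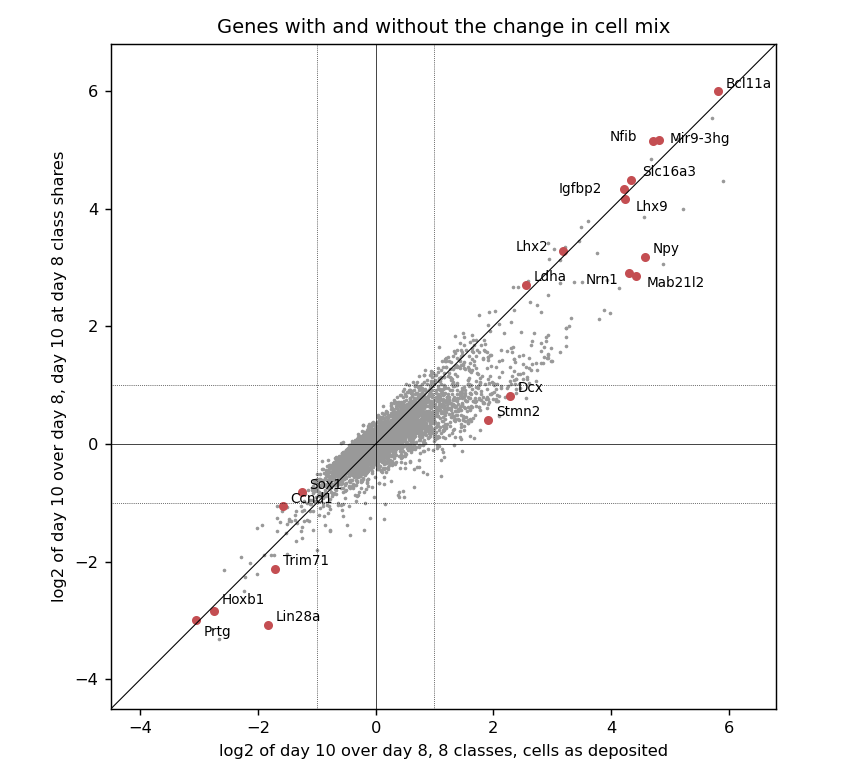
Each point is a gene: log2 of day 10 over day 8 in the 8 shared classes with the cells as deposited (horizontal axis) and with day 10 weighted to the day 8 class shares (vertical axis); dotted lines mark 2-fold. Bcl11a, Nfib, Igfbp2 and Prtg lie near the diagonal, while the neuronal genes Stmn2 and Dcx lie well below it.

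The 15 highest genes over all cells were taken among those that reached 20 CPM in either library. Npy, a peptide transmitter, had 27.8 CPM at day 10 and 0.372 CPM at day 8 (log2 6.15), and most of its signal was in the migratory crest class, with 1100 CPM at day 10. The dI1 factors Lhx9, Lhx2 and Barhl1 had 48.0, 59.3 and 35.3 CPM at day 10 and 0.855, 1.23 and 1.56 CPM at day 8 (log2 5.78, 5.57 and 4.48). Cntn2, an axonal adhesion protein of commissural neurons, had 99.0 CPM at day 10 and 3.34 CPM at day 8 (log2 4.88); in the 8 shared classes its log2 difference was 5.22 as deposited and 3.99 at equal class shares. Pcp4, a calmodulin regulator whose exons overlap another gene on the same strand, Nrn1 and Mab21l2 followed with log2 differences of 5.71, 5.09 and 4.60. The dI1 list had 6 of 6 compared members at least 2-fold higher (median log2 5.02), against 6.79% of all genes. The dI1 class itself held a larger share of the day 10 cells. In the 8 shared classes, without dI1, Lhx9, Lhx2 and Barhl1 differed by 4.23, 3.18 and 4.68 as deposited. At equal class shares they differed by 4.17, 3.29 and 4.84. In the 8 shared classes, which leave out migratory crest and dI1, the log2 differences of Npy, Nrn1 and Mab21l2 were 4.58, 4.30 and 4.42 as deposited and 3.19, 2.91 and 2.85 at equal class shares.

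Among genes compared in all 8 classes (7881), 12 were at least 2-fold higher at day 10 in every class: Bcl11a, Mir9-3hg, Igfbp2, Pdk1, Pcsk1n, Pgm1, Mir99ahg, Bnip3, Spaca6, Epha3, Gm2694 and Ssbp4. Another 4 were at least 2-fold lower in every class: Prtg, Lin28a, Sall4 and Trim71. At least 7 classes of 8 had 29 of these genes higher and 6 lower. Gm2694 overlaps another gene's exons on the same strand, so its counts are uncertain, and Ssbp4 differed between the day 6 duplicates by −1.52 on the log2 scale, close in size to its differences between the days.

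Bcl11a (chr11:24078056-24174123, plus strand) encodes a zinc finger repressor that is also a subunit of neural BAF chromatin remodelling complexes. It had 99.8 CPM at day 10 (95% Poisson interval 97.8 to 102) and 1.69 CPM at day 8 (1.46 to 1.95), and had been at 0.412 CPM at day 6 in elongated replicate 2 and 0.0750 CPM at day 7. Its level at day 10 was 111 CPM in the mid/hindbrain class, 132 CPM in the spinal cord class, 126 CPM in dI2 and 65.2 CPM in dI3. At day 8 the same classes had 0.914, 3.76, 0.954 and 0.246 CPM. Progenitor and neuron classes were alike in having almost none at day 8, and the log2 difference ran between 3.32 in cluster 14 and 6.88 in dI3. The replicates of day 6 differed by 1.03 at 0.412 and 0.196 CPM. Of the other BAF genes, Bcl11b had 13.8 CPM at day 10 and 0.276 CPM at day 8, and Actl6b, the neuronal actin-like subunit, 20.3 and 2.84 CPM. In the BAF list 4 of 14 compared genes were at least 2-fold higher over all cells (median log2 0.38), against 6.79% of all genes. In the 8 shared classes 3 of 14 were as deposited (median 0.33), against 5.53% of all genes. At equal class shares 2 of 13 were (median −0.02), against 2.47%.

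Nfia and Nfib were on in progenitor classes. Nfib (chr4:82290173-82705750, minus strand) had 47.0 CPM at day 10 and 1.99 CPM at day 8 over all cells, 136 and 3.58 CPM in the spinal cord class, 62.1 and 1.38 CPM in the mid/hindbrain class, and 75.5 and 1.64 CPM in cluster 8. In the classes deposited as dI2 and dI3 it had 3.01 and 2.73 CPM at day 10 and 0 and 0.246 CPM at day 8. Nfib was thus high in progenitors and low in neurons at day 10, unlike Bcl11a. Nfia had 62.4 CPM at day 10 and 7.49 CPM at day 8 over all cells, and 107 and 8.90 CPM in the spinal cord class. Nfib differed by 4.55 on the log2 scale over all cells and, in the 8 shared classes, by 4.72 as deposited and 5.15 at equal class shares. The list of radial glia and gliogenic genes had 5 of 13 compared members at least 2-fold higher over all cells (median 0.53), against 6.79% of all genes. In the 8 shared classes 5 of 13 were as deposited (median 0.63) and 7 of 13 at equal class shares (median 1.05), among them the glutamate transporter Slc1a3, with 19.6 CPM at day 10 and 7.03 CPM at day 8. The shares of all genes higher in the 8 shared classes were 5.53% as deposited and 2.47% at equal class shares.

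The microRNA hosts differed in timing. Mir9-3hg had 1.01 CPM at day 6, 0.435 at day 7, 1.88 at day 8 and 48.8 CPM at day 10, so nearly all of its signal was at day 10. Mir99ahg had 0.0917, 1.24, 25.05 and 90.6 CPM at days 6, 7, 8 and 10, a stepwise series. At day 10 and day 8, Mir9-3hg had 74.2 and 1.11 CPM in the mid/hindbrain class and 9.78 and 1.23 CPM in dI3 neurons. Mir99ahg had 225 CPM at day 10 in cluster 14 and 26.9 CPM in dI2, against 45.9 and 8.59 CPM at day 8. Igfbp2 (chr1:72824503-72852474, plus strand), a secreted binding protein of insulin-like growth factors, was the most abundant of the 12: 451 CPM at day 10 (447 to 455) and 24.7 CPM at day 8 (23.8 to 25.6). It had been at 139 and 14.3 CPM at days 6 and 7, so its lowest level was at day 7. By class it ranged from 170 CPM in cluster 8 to 844 CPM in dP2/3 at day 10, against 21.7 and 53.02 CPM at day 8.

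Prtg (chr9:72806874-72917291, plus strand), which encodes protogenin, an immunoglobulin superfamily receptor of the early neural tube, had the lowest log2 difference over all cells among genes that reached 20 CPM in either library (−3.12). It had 21.9 CPM at day 10 (20.9 to 22.9) and 190 CPM at day 8 (188 to 193), with 309 CPM at day 6 and 418 CPM at day 7. In the mid/hindbrain class it had 30.1 CPM at day 10 and 235 CPM at day 8. The spinal cord class had 12.1 and 108 CPM, and the class deposited as dI2 11.9 and 65.9 CPM. Prtg was at least 2-fold lower in every class compared, with log2 differences from −3.40 in cluster 14 to −1.99. The day 6 duplicates differed by 0.01.

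Lin28a (chr4:134003330-134018841, minus strand), the RNA-binding protein that blocks let-7 maturation, had 244 CPM at day 6, 116 at day 7, 38.8 (37.6 to 39.9) at day 8 and 12.0 CPM (11.3 to 12.7) at day 10. Its difference was −1.69 on the log2 scale over all cells, and in the 8 shared classes −1.82 as deposited and −3.07 at equal class shares. The classes differed in level. The dI3 neurons had 47.1 CPM at day 10 and 223 CPM at day 8, and the class deposited as dI2 28.8 and 125 CPM. The mid/hindbrain class had 1.76 and 33.4 CPM and the spinal cord class 0.851 and 12.5 CPM. Lin28a was thus lower at day 10 in each class and higher in neurons than in progenitors on both days, and the day 10 library held more neurons. Trim71 (chr9:114507133-114564369, minus strand), a let-7-targeted ubiquitin ligase and translational repressor, had 24.0 CPM at day 10 and 76.3 CPM at day 8, with 17.4 and 83.7 CPM in the mid/hindbrain class and 41.4 and 109 CPM in dI3. Sall4, a zinc finger factor of pluripotent and early embryonic cells, had 3.84 CPM at day 10 and 18.2 CPM at day 8. Nr6a1 (chr2:38723370-38927688, minus strand), an orphan nuclear receptor of the trunk-forming embryo, had 15.6 and 42.2 CPM at day 10 and day 8, and was at least 2-fold lower in 7 of 8 classes, with 8.17 and 14.8 CPM in the spinal cord class. Of the 11 early-stage (heterochronic) RNA regulators, 3 were at least 2-fold lower over all cells (Lin28a, Trim71, Nr6a1; median −0.85), against 0.989% of all genes. In the 8 shared classes 3 were as deposited (median −0.90) and 4, with Lin28b, at equal class shares (median −0.62), against 0.734% and 0.755% of all genes. Hmga2 had 73.8 CPM at day 10 and 107 CPM at day 8 and Igf2bp1 162 and 251 CPM, short of 2-fold, and Mycn had 36.9 and 28.8 CPM.

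**Figure D3:**
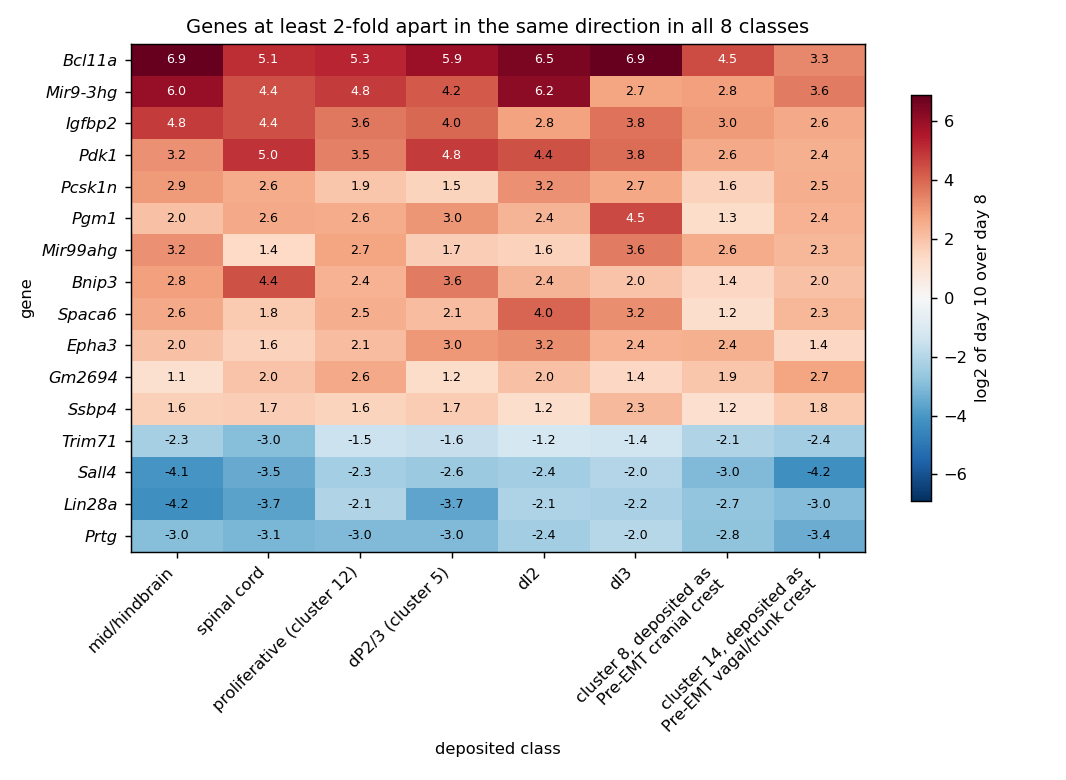
Log2 of day 10 over day 8 (colour and printed value) of the 16 genes (rows) that were at least 2-fold apart in the same direction in all 8 classes (columns). The row of Bcl11a runs from 3.32 in cluster 14 to 6.88 in dI3, and the row of Prtg from −3.40 in cluster 14 to −1.99 in dI3.

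**Figure D4:**
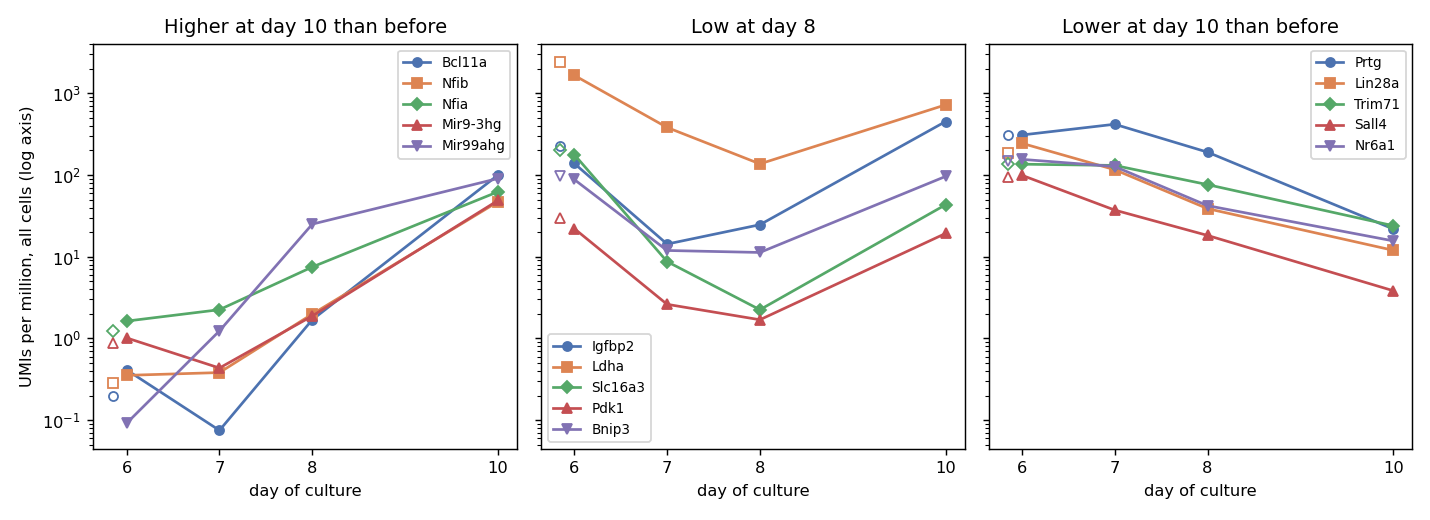
Level in CPM over all cells (vertical axis, log scale) over days 6, 7, 8 and 10, with 5 genes in each of 3 panels; filled points at day 6 are elongated replicate 2 and hollow points elongated replicate 1, which has no value for Mir99ahg. Bcl11a reaches 99.8 CPM at day 10, Ldha is lowest at day 8 with 137 CPM, and Prtg and Lin28a are lowest at day 10.

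Genes of glycolysis and of the response to low oxygen were higher at day 10, and most were at their lowest at day 7 or day 8. Ldha (chr7:46841475-46855627, plus strand), lactate dehydrogenase A, had 1659 CPM at day 6 in replicate 2, 382 at day 7, 137 at day 8 and 722 CPM at day 10. Slc16a3 (chr11:120948480-120960868, plus strand), the lactate exporter MCT4, had 178, 8.73, 2.25 and 43.2 CPM at days 6, 7, 8 and 10. Pdk1, the kinase that holds pyruvate back from mitochondria, had 22.1, 2.62, 1.69 and 19.3 CPM, and the mitophagy gene Bnip3 88.2, 11.9, 11.3 and 96.1 CPM on those days. Ldha and Slc16a3 at day 10 thus lay between their day 8 and day 6 levels, and Bnip3 was near its day 6 level.

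Over all cells, 11 of 19 compared genes of the glycolysis and hypoxia list were at least 2-fold higher and 0 lower (median log2 1.11), against 6.79% of all genes and their median of 0.04. In the 8 shared classes 12 were higher both as deposited (median 1.23) and at equal class shares (median 1.28), against 5.53% and 2.47% of all genes. The enzymes Tpi1, Aldoa and Pgk1 had 454, 453 and 547 CPM at day 10 and 156, 176 and 248 CPM at day 8. Gapdh (2085 and 2104 CPM at day 10 and day 8) differed little, and the glucose transporter Slc2a1 had 36.9 and 71.0 CPM, lower at day 10 by less than 2-fold. Of all genes, between 2.33% (mid/hindbrain) and 6.94% (cluster 14) were at least 2-fold higher within a class. By class the list was widest in the spinal cord, with 16 of 20 genes higher (median 1.77), in dP2/3, with 14 higher and 1 lower of 19 (1.92), and in dI2, with 14 of 20 (1.79). In the spinal cord class Ldha had 1275 CPM at day 10 and 132 CPM at day 8. It was 12 of 20 in dI3 (1.39), 11 higher and 1 lower of 18 in cluster 12 (1.18), 9 of 17 in mid/hindbrain (1.06) and 7 of 18 in cluster 14 (0.80). Cluster 8 had 3 higher and 1 lower of 17 (0.25), the smallest difference of the 8. Where in the organoid these cells lay was not measured.

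**Figure D5:**
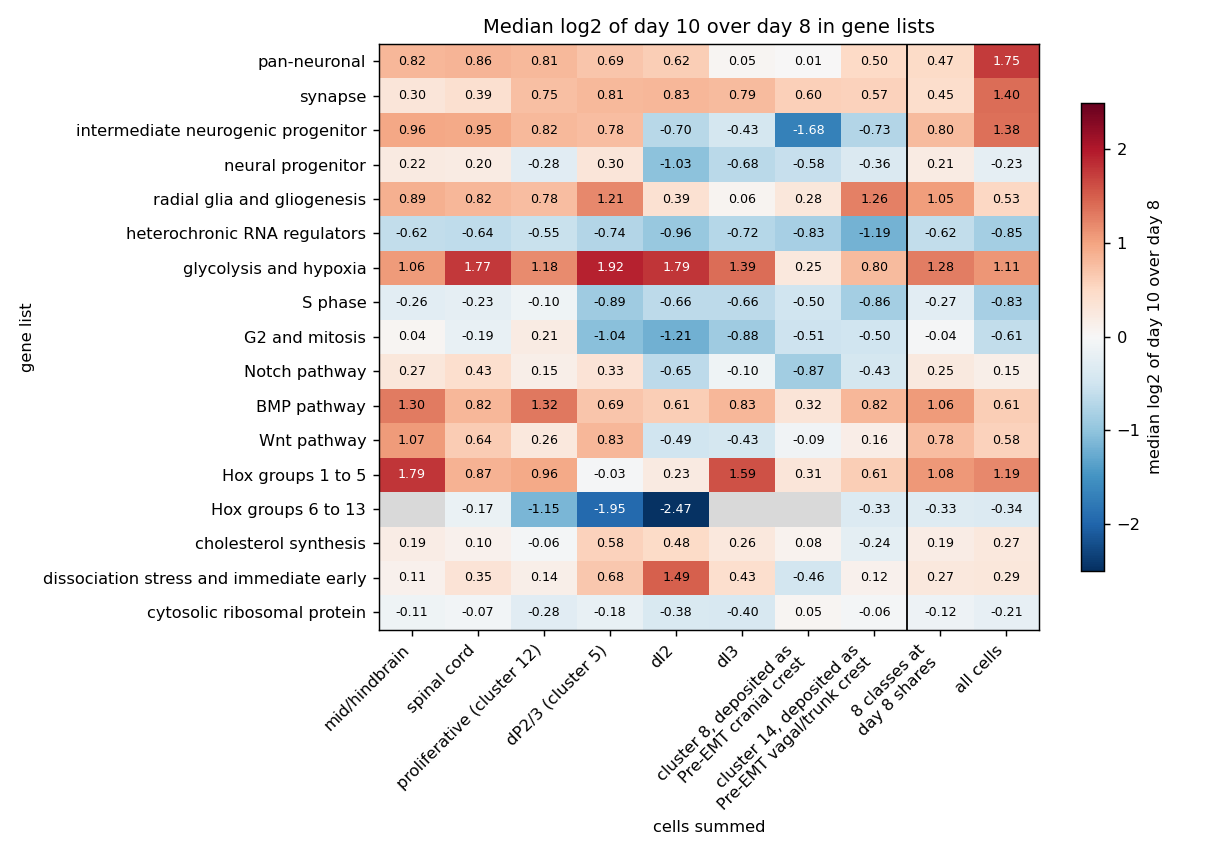
Median log2 of day 10 over day 8 (colour and printed value) of each gene list (rows) within each of the 8 classes, at day 8 class shares and over all cells (columns); grey marks fewer than 5 compared members. The glycolysis and hypoxia row is above 0 in every column, from 0.25 in cluster 8 to 1.92 in dP2/3, while the pan-neuronal row stands at 0.47 at day 8 shares and, with all 11 classes, at 1.75 over all cells.

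Neuronal genes were higher over all cells, and in the 8 shared classes by less at equal class shares than as deposited. Of all genes, 6.79% were at least 2-fold higher over all cells and 0.989% lower. In the 8 shared classes 5.53% were higher and 0.734% lower as deposited, and 2.47% and 0.755% at equal class shares. All 17 compared pan-neuronal genes were at least 2-fold higher over all cells (median 1.75), for example Tubb3 (867 CPM at day 10 and 258 CPM at day 8), the microtubule proteins Dcx (259 and 49.5 CPM) and Stmn2 (821 and 196 CPM), and the growth cone protein Gap43 (400 and 65.7 CPM). In the 8 shared classes 17 of 17 were at least 2-fold higher as deposited (median 1.77), and 2 of 17 at equal class shares (median 0.47). Synapse genes did likewise, with 11 of 15 higher over all cells (median 1.40), 10 of 14 in the 8 classes as deposited (median 1.31) and 4 of 12 at equal shares (median 0.45); the glutamate receptor subunit Gria2 had 31.0 CPM at day 10 and 3.97 CPM at day 8. Of 15 genes of intermediate neurogenic progenitors, 10 were higher over all cells (median 1.38), 9 in the 8 classes as deposited (median 1.16) and 5 at equal shares (median 0.80). Among them the proneural factors Atoh1 and Neurog2 had 36.9 and 28.6 CPM at day 10 and 4.42 and 4.04 CPM at day 8, and Nhlh2 had 284 and 39.6 CPM. Of 12 neural progenitor genes 3 were at least 2-fold lower over all cells (Sox1, Sox3 and Pax6; median −0.23). As deposited, 2 were in the 8 shared classes (median −0.07), and at equal shares 0 were (median 0.21). Sox1, which overlaps another gene's exons, had 18.8 CPM at day 10 and 52.5 CPM at day 8, and Pax6 52.9 and 117 CPM.

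Cell cycle genes were lower over all cells by less than 2-fold in most cases. In the S phase list 4 of 30 compared genes were at least 2-fold lower (median −0.83), against 0.989% of all genes. Examples were Ccne1 (24.8 CPM at day 10 and 56.4 CPM at day 8) and Mcm5 (64.0 and 132 CPM). None of the list was at least 2-fold lower in the 8 shared classes, with a median of −0.63 as deposited and −0.27 at equal class shares. The list of G2 and mitosis genes had 0 of 33 at least 2-fold lower (median −0.61), with medians in the 8 shared classes of −0.42 as deposited and −0.04 at equal shares. In the dP2/3 class 17 of 31 genes of G2 and mitosis were at least 2-fold lower (median −1.04), against 2.35% of all genes in that class, for example Ccnb1, with 17.9 CPM at day 10 and 37.2 CPM at day 8. Ccnd1, cyclin D1, which drives entry into S phase, had 82.8 CPM at day 10 and 266 CPM at day 8 over all cells (log2 −1.68), and in the 8 shared classes its difference was −1.57 as deposited and −1.06 at equal class shares.

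Hox genes, which mark position along the head-to-tail axis, differed by paralog group and by class. Of 13 compared genes of paralog groups 1 to 5, 9 were at least 2-fold higher at day 10 and 1 was lower (median 1.19). Among all genes 6.79% were higher and 0.989% lower. In the 8 shared classes the median of paralog groups 1 to 5 was 0.96 as deposited and 1.08 at equal class shares. Hoxa5, Hoxb5 and Hoxc4 had 50.8, 39.7 and 56.3 CPM at day 10 and 10.9, 8.65 and 16.6 CPM at day 8. The exception was Hoxb1 (chr11:96365752-96368256, plus strand), the gene of the fourth rhombomere, with 4.43 CPM at day 10 and 27.2 CPM at day 8 (log2 −2.61). Of 7 genes of groups 6 to 13, 0 were 2-fold higher or lower over all cells (median −0.34), and in the 8 shared classes 2 were lower both as deposited (median −0.91) and at equal shares (−0.33). The shares of all genes lower in the 8 shared classes were 0.734% and 0.755%. In the class deposited as dI2 all 7 were lower (median −2.47), against 3.47% of all genes in the class. Hoxb8 had 66.2 CPM there at day 10 and 351 CPM at day 8. In dP2/3 all 6 compared were lower (−1.95), against 2.35%. In cluster 12 4 of 6 were lower (−1.15), against 1.53%. In the spinal cord class 0 were (−0.17). In the mid/hindbrain class 7 of 11 genes of groups 1 to 5 were higher and 1 lower (1.79), against 2.33% and 0.974% of all genes. Each of dI2 and dP2/3 is 1 deposited class without a position along the axis, so a different share of cells by position and a different level per cell cannot be told apart here.

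The mid/hindbrain class (1035 cells at day 10 and 1746 at day 8) had 218 of 9340 compared genes at least 2-fold higher (2.33%) and 91 lower (0.974%). Beside the genes shared by all classes, Wnt7b, a Wnt ligand, had 53.5 CPM at day 10 and 4.88 CPM at day 8 (log2 3.44). Genes of BMP signalling were often higher: 7 of 11 compared BMP pathway genes were at least 2-fold higher and 1 lower (median 1.30), including the BMP-induced factor Msx2 (74.6 and 17.3 CPM at day 10 and day 8), the BMP antagonist Nog (29.9 and 5.69 CPM) and the feedback inhibitor Smad7 (105 and 28.9 CPM). Wnt1 had 71.9 CPM at day 10 and 31.3 CPM at day 8 in this class, and Wnt3a 9.33 and 1.99 CPM. Crabp1, a cytosolic retinoic acid binding protein, was lower, with 579 CPM at day 10 and 2419 CPM at day 8 (log2 −2.06), as were Fignl2 (10.3 and 53.3 CPM) and the long noncoding RNA Meg3 (60.0 and 196 CPM), whose exons overlap another gene.

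The spinal cord class (228 and 676 cells at day 10 and day 8) had 279 of 9264 compared genes higher (3.01%) and 76 lower (0.820%). With cells thinned to 8000 UMIs these counts were 357 and 135. Slc16a3 was its highest named gene, with 82.1 CPM at day 10 and 1.12 CPM at day 8 (log2 6.03). Ntrk2, the receptor of brain-derived neurotrophic factor, had 122 and 8.40 CPM (log2 3.84). Lower were Igdcc3, a relative of Prtg in the immunoglobulin superfamily, with 25.9 CPM at day 10 and 117 CPM at day 8 (log2 −2.17), Lgals1 (15.7 and 67.8 CPM) and the retinoic acid binding protein gene Crabp2 (352 and 964 CPM). The trunk Hox genes of groups 6 to 13 differed by less than 2-fold in this class.

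Cluster 12 (158 and 159 cells) had 347 of 9357 genes higher (3.71%) and 143 lower (1.53%). Dbx1, a factor of interneuron progenitors of the intermediate neural tube, had 0 UMIs at day 10 and 394 UMIs at day 8 (74.5 CPM), at least 113-fold lower against a floor of 3 UMIs in the day 10 sum. Atoh1 and Barhl1, of the most dorsal lineage, had 94.6 and 73.1 CPM at day 10 and 6.62 and 3.78 CPM at day 8 (log2 3.76 and 4.13). Hoxb9 had 14.4 CPM at day 10 and 60.5 CPM at day 8, and Onecut2 48.2 and 188 CPM. The cluster thus held markers of different dorsal-ventral positions on the 2 days.

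In dP2/3 (394 and 296 cells), 420 of 9346 genes were higher (4.49%) and 220 lower (2.35%). The potassium channel gene Kcnq3 had 55.3 CPM at day 10 and 0.452 CPM at day 8 (log2 6.22), and the proneural factor Neurog2 had 180 and 16.7 CPM. Onecut2 (23.3 and 190 CPM), Onecut1 (17.2 and 104 CPM), which overlaps another gene's exons, and the secretory granule gene Scg2 (8.96 and 71.99 CPM) were lower.

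The class deposited as dI2 (374 cells at day 10 and 98 at day 8) had 570 of 9341 genes higher (6.10%) and 324 lower (3.47%). Its marker Foxd3 had 20 UMIs at day 10 and 0 at day 8. Genes of inhibitory transmission were among the higher ones: Slc32a1, the vesicular GABA and glycine transporter, had 64.3 CPM at day 10 and 4.77 CPM at day 8 (log2 3.64), and Gad2, which makes GABA, 44.7 and 4.29 CPM. Of 6 compared transmitter genes, 4 were at least 2-fold higher (median 3.39). Slc16a3 had 370 UMIs (50.7 CPM) at day 10 and 0 at day 8, at least 35-fold higher against a floor of 3 UMIs. Mab21l2 (115 and 2.86 CPM), the peptide gene Cartpt (300 and 16.2 CPM) and the calcium channel subunit gene Cacna2d1 (76.2 and 5.73 CPM) followed, and Cntn2 had 350 and 35.3 CPM. Itm2a (0.959 CPM at day 10 and 50.1 CPM at day 8) and Ccnd1 (9.59 and 123 CPM) were lower, as were 9 of 17 genes of G2 and mitosis (median −1.21). Genes induced by cell dissociation were also higher in this class, 7 of 11 (median 1.49), against 3 of 11 over all cells (0.29), and their part in these differences was not tested.

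The dI3 neurons (367 and 140 cells) had 566 of 9566 genes higher (5.92%) and 321 lower (3.36%). This class joins deposited clusters 11 and 16, and cluster 16 made up 18.8% of it at day 10 (69 cells) and 6.43% at day 8 (9 cells). A different mix of these clusters and a different level per cell were not separated here. Their usual marker Isl1 was low on both days, with 9.22 and 0.491 CPM, and Tlx3 had 169 CPM at day 10 and 318 CPM at day 8. Pcp4 had 289 and 2.95 CPM (log2 6.47), Chl1, an adhesion protein of growing axons, 140 and 3.69 CPM (5.14), and Cyp26b1, which degrades retinoic acid, 99.6 and 3.69 CPM (4.64). The vesicular glutamate transporter Slc17a6 had 46.3 CPM at day 10 and 8.35 CPM at day 8. The synaptotagmin Syt4 had 180 and 48.2 CPM, and Gria2 134 and 48.9 CPM. Lower were the keratin Krt8 (3.53 CPM at day 10 and 83.8 CPM at day 8), Igfbp5 (6.14 and 130 CPM), the tropomyosin Tpm2 (66.9 and 481 CPM) and Lgals1 (322 and 1720 CPM). 

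Cluster 8 (255 and 76 cells) had 358 of 9609 genes higher (3.73%) and 146 lower (1.52%). With cells thinned to 8000 UMIs these counts were 601 and 180. Ttr, transthyretin, which the choroid plexus secretes, had 1077 UMIs at day 10 (135 CPM) and 0 at day 8, at least 136-fold higher against a floor of 3 UMIs. Otx2, a factor of the anterior brain and of choroid plexus whose exons overlap another gene, had 51.8 CPM at day 10 and 0.985 CPM at day 8 (log2 5.28). The roof plate factor Lmx1a (22.3 and 7.88 CPM) and the collagen gene Col4a1 (76.3 and 24.6 CPM) were also higher, while Wnt1 had 183 CPM at day 10 and 244 CPM at day 8. Msx3 had 7.01 and 87.0 CPM, Pax3 17.4 and 81.4 CPM, and Hes5, a target of Notch, 31.8 and 145 CPM. In the Notch list 7 of 16 genes were at least 2-fold lower in this cluster (median −0.87), among them the ligands Dll1 (4.63 and 17.7 CPM) and Dll3 (2.13 and 10.5 CPM), against 2 of 16 higher and 0 lower over all cells (median 0.15). Cluster 14 (105 and 69 cells) had 665 of 9578 genes higher (6.94%) and 234 lower (2.44%); with a prior count of 10, 141 were lower. Its highest was Anxa2, with 66.4 CPM at day 10 and 0.615 CPM at day 8 (log2 5.74), and Nfia had 177 and 9.54 CPM. The neural tube factors Irx3 (5.23 and 73.2 CPM) and Irx5 (8.50 and 101 CPM) were lower there, as were 7 of 11 early-stage RNA regulators.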

How the data were processed

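Single-cell RNA of 2 libraries, elongated organoids at day 10 and day 8, was compared; the elongated day 6 and day 7 libraries were used for levels by day. The deposited matrices hold UMI counts per gene and cell, without normalisation, and the authors' metadata add, for each cell, its count of UMIs and the percent of them on mitochondrial genes. Cell Ranger 3.1 and the build mm10 are named in the submitters' processing notes. The cell filter, the treatment of doublets and the naming of classes are not given in the sources used here; no doublet caller was run and free RNA in droplets was not estimated. Matrix sums matched the metadata in all 11981 cells of the main table and 4301 of the day 6 table, whose library SENT was read as elongated.

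Counts were summed per library and class and scaled to 1000000 UMIs (CPM). Log2 ratios used a prior count of 2 scaled to depth. Genes with a mean of at least 5 CPM and 20 UMIs in all were compared and called at 2-fold. Intervals are exact, at 95%. Named genes are the 15 highest and 15 lowest ratios among genes with at least 20 CPM over all cells, the 8 highest and 8 lowest with at least 50 CPM and 50 UMIs within a class, and members of gene lists; Sall4 and other genes shared across classes were named after their values were seen. The comparison and the lists were chosen with earlier results of these data known. The calculation was tested on simulated data. Alternatives were TMM scaling (edgeR 4.0.16, R 4.3.3), thinning, other filters, a prior count of 10, leaving out the 5% of cells with the most UMIs, and equal class shares. Gene symbols were matched to GENCODE M21: 20650 of 21062 matched 1 gene. Python 3.11.15, numpy 2.4.6, pandas 2.3.3, scipy 1.17.1 and matplotlib 3.10.9 were used.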

Additional observations from a re-analysis of the deposited data

Results flagged for a closer look

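A pair of named genes was at least 4-fold higher at day 10 in 1 class and at least 4-fold lower in another. Pou2f2, a POU homeodomain factor whose exons overlap another gene's on the same strand, had 381 CPM at day 10 (3345 UMIs) and 71.0 CPM at day 8 (289 UMIs) in dI3 neurons, a log2 difference of 2.42. In cluster 14 it had 13.7 CPM (42 UMIs) and 115 CPM (373 UMIs), a difference of −3.01. Krt8, a keratin of simple epithelia, had 15 CPM at day 10 (46 UMIs) and 1.54 CPM at day 8 (5 UMIs) in cluster 14, a log2 difference of 2.85. In dI3 neurons it had 3.53 CPM (31 UMIs) and 83.8 CPM (341 UMIs), a difference of −4.45. With 1 library a day the difference between the classes was not tested for either gene.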

How the results depend on the processing

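With TMM scaling 164 genes were lower at day 10 over all cells, against 96 with scaling to the total. With a mean of at least 20 CPM, 311 genes differed at least 2-fold over all cells (273 higher, 38 lower; 755 in the main comparison). In the order mid/hindbrain, spinal cord, cluster 12, dP2/3, dI2, dI3, cluster 8 and cluster 14, the counts were then 123, 133, 206, 254, 358, 332, 153 and 327. With no filter other than 1 UMI they were 4466 over all cells (3478 higher, 988 lower) and 2625, 2618, 1950, 2317, 2963, 2808, 2345 and 2439 by class; the filter itself sets how many genes are compared. The main class counts were 309, 355, 490, 640, 894, 887, 504 and 899. Thinning to 8000 UMIs gave 781 in cluster 8, and 135 lower genes in the spinal cord class against 76. A prior count of 10 gave 141 lower genes in cluster 14 against 234. Weighting to day 8 shares left 308 (236 higher), and weighting over all 11 classes, an alternative chosen after seeing the data, 348 (277 higher). Among cells with at least 20000 UMIs, the ratio of day 10 over day 8 shares was 1.22 for dorsal progenitors (1.82 as deposited), 0.609 for progenitors without a dorsal name (0.500), 3.30 for the classes deposited as crest (2.48), 0.628 for dP2/3 (1.21) and 1.20 for cluster 12 (0.902), the last 2 on the other side of 1. With neural tube classes alone as the denominator, progenitors without a dorsal name came to 0.538. A prior count of 10 and leaving out the 5% of cells with the most UMIs moved no total by over 1.5 times. The genes named for the highest and lowest ratios kept their sign under TMM scaling, thinning and a prior count of 10. Those named over all cells also kept it at equal class shares, but 28 moved outside the counting interval of their main value and 2 did not. Several genes named within a class changed sign over the 8 shared classes at equal class shares, among them Meg3, Rian (0.37 as deposited and −0.87), Onecut1 (0.47 and −0.79), Onecut2 (0.14 and −1.28) and Ntng1 (0.80 and −0.02). Some list medians changed sign too at equal class shares: those of the neural progenitor (−0.23 over all cells; 0.21), BAF (0.38; −0.02) and oligodendrocyte precursor and Schwann lists (0.62; −0.65). Several lists with medians near 0 did so as well, some of these also under TMM scaling. The cause of these shifts was not tested. No paired analysis was possible because there is 1 library a day, and for the same reason no replicate could be left out. Shallow classes limit genes of low level: cluster 14 has 69 cells at day 8.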

Other observations

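Several gene groups outside the comparisons above were described by their values. Over all cells 6.79% of all genes were at least 2-fold higher at day 10 and 0.989% lower. In the Wnt list 4 of 13 compared genes were at least 2-fold higher at day 10 and 2 lower over all cells (median log2 0.58), and in the roof plate list 3 of 6 were higher (median 1.12). The BMP pseudoreceptor Bambi had 30.1 CPM at day 10 and 7.07 CPM at day 8, and the activin and BMP antagonist Fst 1.64 and 9.25 CPM. Of 29 axon guidance genes 13 were higher and 1 lower (median 0.80), and of 19 neuronal RNA-binding genes 11 were higher (median 1.18). The retinoic acid binding protein genes Crabp2 and Crabp1 had 512 and 2126 CPM at day 10 and 1267 and 3022 CPM at day 8. The imprinted RNA H19 had 27.0 CPM at day 10 and 2.99 CPM at day 8, and Meg3 727 and 306 CPM; both overlap another gene's exons, and in the 8 shared classes Meg3 differed by 1.11 on the log2 scale as deposited and by −0.28 at equal class shares. None of 20 cholesterol genes and none of 80 cytosolic ribosomal protein genes differed 2-fold (medians 0.27 and −0.21).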
